A study of Mus musculus with 24 samples.

Results

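Mitochondria in heart muscle are joined, divided and removed by a small set of conserved proteins, and 9 genes that encode them were followed here. They were taken from the deposited annotation by gene symbol, and all 9 were among the 20961 genes listed and among the 17203 genes tested. They are the fusion genes Mfn1, Mfn2 and Opa1, the fission genes Dnm1l and Fis1, the mitophagy kinase gene Pink1, and the mitophagy receptor genes Bnip3, Bnip3l and Fundc1. Bulk polyadenylated RNA was sequenced from whole hearts of NZO/HlLtJ (NZO), CAST/EiJ (CAST) and C57BL/6J (B6) mice, in 24 libraries. Females and males of each strain ate a diet labelled 44% fat plus fiber, described as high in fat and sugar, or a control diet labelled 10% fat plus fiber. Each of the 12 groups of strain, diet and sex held 2 libraries. The diets began at 6 weeks of age and tissue was taken at 15 weeks, and all mice were labelled wild type with no other treatment. NZO is a polygenic obese strain, CAST a strain inbred from wild-caught Mus musculus castaneus, and B6 a common laboratory strain. A single inbred line stands for each background. No label states that both libraries of a group are from different animals, and the spread behind the p-values may thus be partly technical.

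Mitofusins tether and fuse the outer membranes of neighbouring mitochondria, and Opa1, a dynamin-like GTPase of the inner membrane, completes fusion and shapes cristae. Division is carried out by the dynamin-like GTPase Drp1, encoded by Dnm1l, which is recruited from the cytosol by adaptors on the outer membrane. Damaged mitochondria are marked for removal either through the kinase Pink1 or by receptors in the outer membrane that bind the autophagosome protein LC3 directly. Heart muscle is densely packed with mitochondria, and loss of fusion or of mitophagy impairs heart function in mice.

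Total expected counts ranged from 30205073 to 52254058 per library. Levels are given as CPM, the gene's share of the library total times 1e6, after each total was scaled by TMM, a factor that evens out differences in RNA composition between libraries. The label of the tissue fits the data, since the 10 cardiomyocyte markers were all detected and their summed level was 60000 to 74300 CPM in NZO, 60200 to 72600 CPM in CAST and 63800 to 69300 CPM in B6. The share of the 15 genes encoded in mitochondrial DNA was 20.9% to 23.9% of all counts in NZO, 20.2% to 23.4% in CAST and 25.8% to 28.8% in B6. The median log2 difference over all genes tested was 0 to 0.0027 in the 3 strain comparisons, as TMM centres most genes, and differences are relative to it. All 8 fibroblast markers were higher in NZO than in B6, with summed levels of 1540 to 1910 CPM in NZO, 967 to 1310 CPM in CAST and 1100 to 1210 CPM in B6. Skeletal muscle markers, of which 6 of 10 were tested, summed to 2560 to 4820 CPM in NZO, 1310 to 1600 CPM in CAST and 1330 to 1730 CPM in B6. That sum is carried by Acta1, with a log2 difference of 3.51 for NZO minus B6, and Ckm (0.20), both also expressed in heart. Of the other 4 tested, Pvalb was lower in NZO (-2.03) and Mylpf (-0.69), Myh4 (-0.63) and Actn3 (-0.14) were not called. All 4 were barely detected, with medians of 0.028 to 0.268 CPM over the 24 libraries. Smooth muscle and pericyte markers, all 8 of them tested, summed to 1030 to 1160 CPM in NZO, 1130 to 1310 CPM in CAST and 1300 to 1510 CPM in B6, and NZO and B6 did not overlap. Most of that sum is Abcc9 and Rgs5, with medians of 508 and 478 CPM over the 24 libraries. The others had medians of 22.2 to 94.9 CPM, so the sum does not show that each marker differed. In bulk tissue, fewer cells of a type and less RNA per cell cannot be told apart, and the part of these marker differences in the strain results was not tested. An exception is the red blood cell markers, which are treated with Bnip3l. One NZO male at 44% fat stood apart: without it 113 genes were called for diet in NZO, against 0 with it, and the 9 genes had 0 calls either way.

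The 9 genes spanned a wide range of levels per length of annotated exon. Mfn2 averaged 156 ± 9.66 and Pink1 149 ± 15.2 CPM per kb (SD, n = 24), and their ranges overlapped, from 139 to 172 for Mfn2 and from 130 to 191 for Pink1. Bnip3 followed with 72.8 ± 28.1, Mfn1 with 51.5 ± 5.39 and Opa1 with 32.5 ± 2.08 CPM per kb. Dnm1l at 25.7 ± 2.51, Fis1 at 24.8 ± 1.34 and Bnip3l at 20.4 ± 5.08 CPM per kb were neighbours with overlapping ranges. Fundc1, at 7.77 ± 0.56 CPM per kb, was the lowest. The place of Bnip3 in this order depended on strain, as its strain values show. Its level varied most among libraries, with a coefficient of variation of 38.6%, followed by Bnip3l at 24.9%, and the other 7 genes varied by 5.4% to 10.5%.

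**Figure D1:**
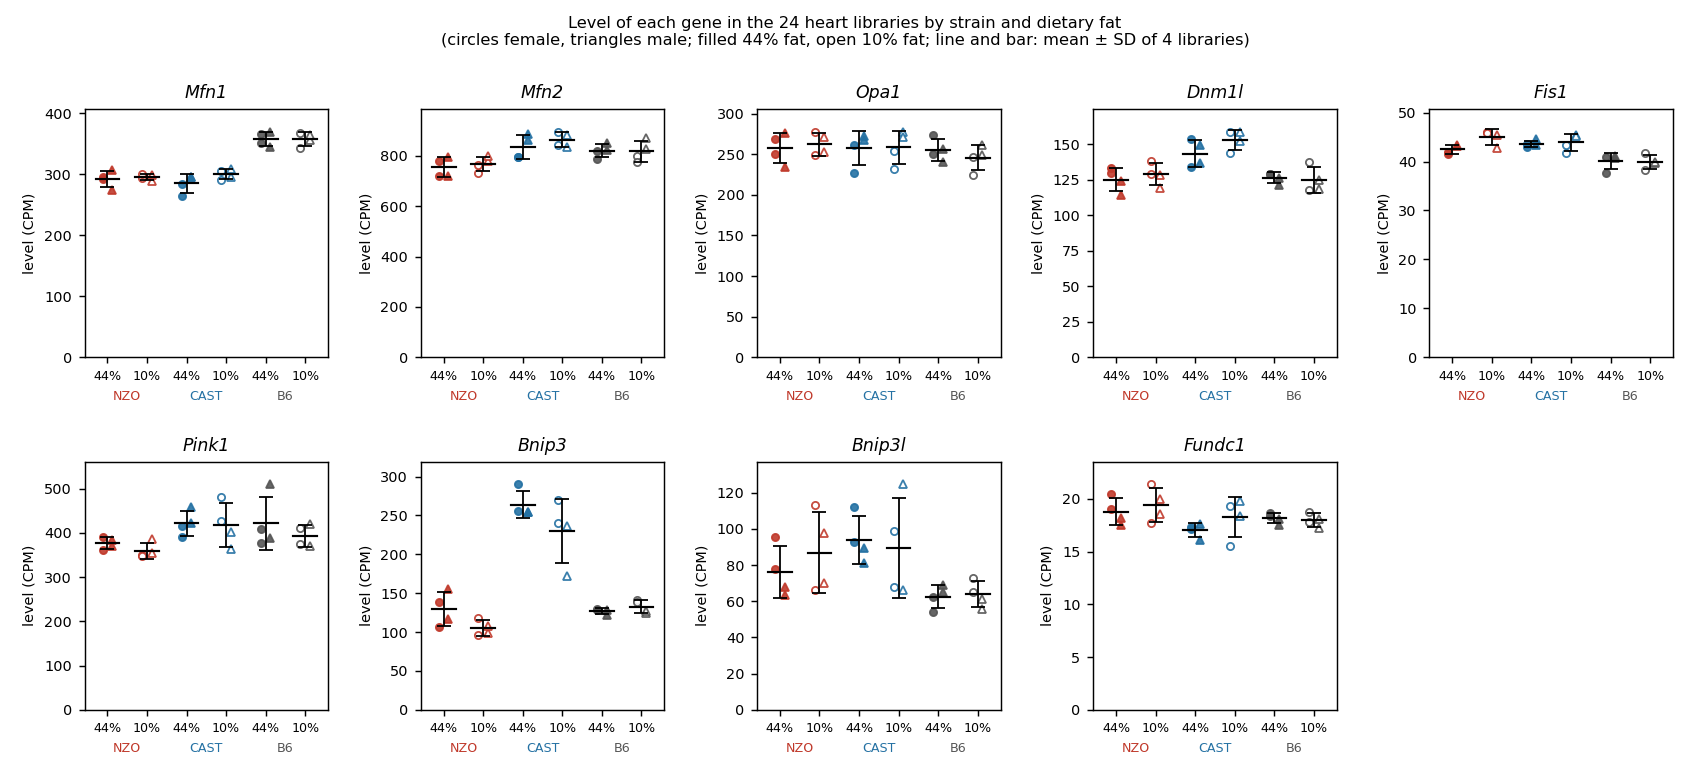
Level in CPM of each of the 9 genes in each of the 24 heart libraries, for NZO, CAST and B6 at 44% and 10% fat. Circles are females and triangles males, and the line and bar give the mean and SD of 4 libraries. Bnip3 is higher in every CAST library than in every NZO and B6 library, Mfn1 is higher in every B6 library than in every NZO and CAST library, and within each strain the diets overlap for all 9 genes.

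Several of the genes differed between strains, but for all except Mfn1 and Bnip3 the libraries of the strains overlapped. Between NZO and B6, 4 of the 9 genes were called at an adjusted p under 0.05, 1 higher in NZO (Fis1) and 3 lower (Mfn1, Mfn2 and Pink1), beside 35.5% of all genes tested (17.9% higher and 17.6% lower). Between CAST and B6, 5 of 9 were called, 4 higher in CAST (Bnip3, Bnip3l, Dnm1l and Fis1) and 1 lower (Mfn1), beside 58.8% of all genes (29.1% higher and 29.7% lower). Between NZO and CAST, 4 of 9 were called, all lower in NZO (Bnip3, Dnm1l, Mfn2 and Pink1), beside 60.3% of all genes (30.5% higher and 29.8% lower). These shares of the 9 genes lie near or below the background, so that a call alone is not particular to them. Over the 9 genes the median absolute log2 difference was 0.13 for NZO against B6, 0.13 for CAST against B6 and 0.16 for NZO against CAST, while over all genes tested it was 0.18, 0.31 and 0.31. The 3 comparisons share libraries in pairs and are not independent.

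**Figure D2:**
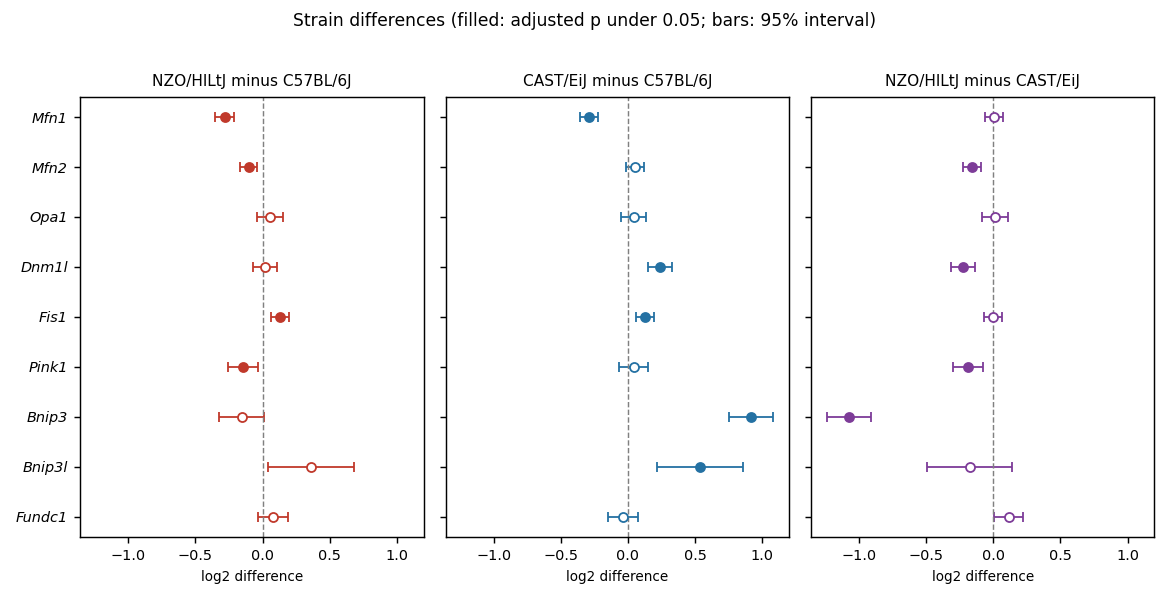
Strain differences of the 9 genes on the log2 scale with 95% intervals, for NZO minus B6, CAST minus B6 and NZO minus CAST, each over 8 libraries per strain. Filled points have an adjusted p under 0.05. Bnip3 stands far to the right in CAST minus B6 (0.92) and far to the left in NZO minus CAST (-1.07), and the other called differences are smaller than 0.6 on this scale.

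The windows upstream of Bnip3 and Mfn1 are shown because these 2 genes gave the only strain differences without overlap between libraries. They are the 250 bases before the RefSeq gene start in GRCm38.p6, at chr7:138909507-138909756 on the minus strand for Bnip3 and at chr3:32529232-32529481 on the plus strand for Mfn1. Capitals mark the core of the hypoxia response element, searched as ACGTG or GCGTG on both strands.
Bnip3: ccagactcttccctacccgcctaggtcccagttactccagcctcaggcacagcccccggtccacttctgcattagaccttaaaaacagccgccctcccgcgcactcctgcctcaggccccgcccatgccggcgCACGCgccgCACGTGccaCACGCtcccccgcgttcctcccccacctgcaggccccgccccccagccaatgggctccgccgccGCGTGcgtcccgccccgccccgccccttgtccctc
Mfn1: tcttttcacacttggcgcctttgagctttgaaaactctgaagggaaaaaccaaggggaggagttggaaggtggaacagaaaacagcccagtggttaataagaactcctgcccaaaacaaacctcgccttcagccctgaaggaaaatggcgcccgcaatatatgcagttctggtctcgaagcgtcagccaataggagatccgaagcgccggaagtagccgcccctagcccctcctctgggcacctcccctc
The Bnip3 window, with 72.4% G and C, held 5 matches, 2 of which overlap within a single run of capitals. The Mfn1 window, with 53.6% G and C, held 0. Matches were also found upstream of Mfn2 (1, 1 and 2 in its 3 windows), Dnm1l (1 in the first of its 2 windows) and Pink1 (1). The last 2 windows of Mfn2 overlap and share 1 of these matches. Upstream of Opa1, Fis1 and Fundc1, 0 were found. At least 1 match is found in 38.6% of the 32851 RefSeq windows of this length. No share is given here for 5 matches or for windows equally rich in G and C. RefSeq windows were found for 8 of the 9 genes, those other than Bnip3l. The nuclear respiratory factor 1 core GCATGCGC, present in 2.26% of all windows, had 2 overlapping matches upstream of Opa1 and 0 upstream of the others, and 0 matches to the estrogen-related receptor site AAGGTCA (4.08% of windows) or to the FoxO site GTAAACA (3.17%) were found in the windows of these 8 genes. A match is a description of the letters in the reference genome, which is that of B6, and says nothing of the sequence in NZO or CAST.

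Among the fusion genes, the mitofusins were lower in NZO than in B6, while Opa1 differed little among strains. Mfn1 (ENSMUSG00000027668, GRCm38 chromosome 3, 32529465 to 32579239, plus strand) encodes the mitofusin known for its strong tethering activity. Its level was 274 to 307 CPM with a median of 294 in 8 NZO libraries, 264 to 308 CPM with a median of 295 in 8 CAST libraries, and 343 to 370 CPM with a median of 360.1 in 8 B6 libraries. Every B6 library was above every NZO and every CAST library, while NZO and CAST overlapped almost fully. Such a separation was seen for 12.2% of all genes in NZO against B6 and for 27.0% in CAST against B6, and Mfn1 was the single gene of the 9 that was lower without overlap in each. The log2 difference was -0.28 (SE 0.03, adjusted p = 1.19e-06) for NZO minus B6 and -0.29 (SE 0.03, adjusted p = 3.07e-07) for CAST minus B6. Both had the same sign in all 4 combinations of sex and diet, from -0.30 to -0.26 in NZO and from -0.39 to -0.25 in CAST. NZO and CAST differed by 0.01 with a 95% interval of -0.06 to 0.08.

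Mfn2 (ENSMUSG00000029020, chromosome 4, 147873599 to 147904704, minus strand) encodes the mitofusin that also links mitochondria to the endoplasmic reticulum. It was measured at 721 to 799 CPM with a median of 772 in NZO, 793 to 895 CPM with a median of 853 in CAST, and 775 to 873 CPM with a median of 821 in B6. NZO held the lowest libraries, yet its highest ones overlapped the lowest of CAST and B6. The difference was -0.16 (SE 0.03, adjusted p = 0.000295) for NZO minus CAST and -0.10 (SE 0.03, adjusted p = 0.0143) for NZO minus B6, a mean of 0.93 times the B6 level. With the range of library identifiers as a block, NZO minus B6 was -0.09 with an adjusted p of 0.0759, so that call is not firm. CAST and B6 differed by 0.05 with an interval of -0.01 to 0.12.

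Opa1 (ENSMUSG00000038084, chromosome 16, 29579334 to 29654884, plus strand) averaged 259.9 ± 15.7 CPM in NZO, 258 ± 19.1 in CAST and 250.4 ± 14.6 in B6 (SD, n = 8 each). The 3 strains overlapped over most of their ranges. NZO minus B6 was 0.05 (95% interval -0.04 to 0.15), CAST minus B6 0.04 (-0.05 to 0.14) and NZO minus CAST 0.01 (-0.08 to 0.11), and none was called. Within strains, Opa1 and Mfn1 varied together, with Pearson's r of 0.89 in NZO, 0.66 in CAST and 0.76 in B6 over 8 libraries each, while over all 24 libraries r was 0.03. This pair had the highest r within strains of all 36 pairs of the 9 genes (0.74, with a median of 0.00 and a lowest of -0.42). The cardiomyocyte marker sum moved with both within strains, with an r of 0.63 for Mfn1 and 0.48 for Opa1, and its part was not tested. These points share library, depth and scaling.

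The fission genes were both higher in CAST than in B6. Dnm1l (ENSMUSG00000022789, chromosome 16, 16312235 to 16359030, minus strand) was found at 114 to 138 CPM with a median of 129 in NZO, 134 to 159 CPM with a median of 151 in CAST, and 118 to 138 CPM with a median of 125 in B6. CAST stood above the others apart from its lowest libraries, which overlapped the highest of NZO and B6. CAST minus B6 was 0.24 (SE 0.04, adjusted p = 6.67e-05), or 1.18-fold, and NZO minus CAST was -0.22 (SE 0.04, adjusted p = 0.000131). Each kept its sign in all 4 combinations of sex and diet. NZO and B6 differed by 0.02 (-0.07 to 0.10).

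Fis1 (ENSMUSG00000019054, chromosome 5, 136953275 to 136966234, plus strand) encodes a small tail-anchored protein of the outer membrane, the adaptor for division in yeast. Its level was 41.5 to 46.1 CPM with a median of 43.3 in NZO, 41.7 to 45.4 CPM with a median of 43.5 in CAST, and 37.7 to 41.8 CPM with a median of 40.3 in B6. The highest B6 library reached only into the lowest part of the NZO and CAST ranges. Both differences from B6 were 0.13 (SE 0.03), with an adjusted p of 0.0033 in NZO and 0.00156 in CAST, and both were positive in all 4 combinations of sex and diet. This is 1.09-fold in each strain. Within the 8 CAST and B6 libraries of the first identifier range alone, CAST minus B6 was 0.12 with an adjusted p of 0.0978. NZO and CAST did not separate, at 0.00 (-0.07 to 0.06).

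Pink1 (ENSMUSG00000028756, chromosome 4, 138313409 to 138326307, minus strand) was lower in NZO. The kinase accumulates on mitochondria that have lost membrane potential and phosphorylates ubiquitin. It was measured at 347 to 391 CPM with a median of 366 in NZO, 364 to 481 CPM with a median of 418 in CAST, and 369 to 510.2 CPM with a median of 399 in B6. All 3 strains overlapped, and the spread was wider in CAST and B6 than in NZO. NZO minus CAST was -0.19 (SE 0.05, adjusted p = 0.00449). NZO minus B6 was -0.15 (SE 0.05, adjusted p = 0.0361), and this call was lost without any 1 of 9 libraries. Without the B6 male at 44% fat that held 510.2 CPM, it was -0.09 (adjusted p = 0.126). A pair of microRNA genes lie on the same strand within Pink1 and share 69 and 110 exon bases with it.

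Bnip3 gave the largest difference of the 9 genes. It encodes an outer membrane receptor that binds LC3 and is a known target of hypoxia-inducible factors, and in heart it has been linked to cell death after ischemia. The gene (ENSMUSG00000078566) lies on chromosome 7 at 138890836 to 138909519 on the minus strand. Its level was 96.2 to 156 CPM with a median of 113 in NZO, 173 to 290.2 CPM with a median of 255 in CAST, and 122 to 141 CPM with a median of 129 in B6. Every CAST library was above every NZO and every B6 library, a separation seen for 26.8% of all genes in NZO against CAST, and the lowest CAST library was a male at 10% fat. NZO and B6 overlapped, and NZO spread more widely. CAST minus B6 was 0.92 (SE 0.08, adjusted p = 4.21e-08), or 1.89-fold, and NZO minus CAST was -1.07 (SE 0.08, adjusted p = 5.94e-09), or 0.47 times the CAST level. In the 4 combinations of sex and diet these ran from 0.69 to 1.07 and from -1.26 to -0.91. Per length of exon, Bnip3 was at 109 CPM per kb in CAST, where Mfn1 was at 47.8, while in NZO the pair stood at 51.8 and 48.1 and in B6 at 57.4 and 58.5. NZO minus B6 was -0.16 (-0.32 to 0.01, adjusted p = 0.135) and was not called. It was called without 1 NZO male (-0.21, adjusted p = 0.0394) or 1 NZO female (-0.21, adjusted p = 0.0452), both at 44% fat.

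The call for Bnip3 held in every alternative run. Within the 8 libraries of the first identifier range, which hold CAST and B6 only, CAST minus B6 was 0.87. An annotated antisense gene, Gm45507, shares 504 exon bases with Bnip3, and one at Dnm1l, Gm49521, shares 243. Neither was analysed here. How the counting treated strand, and whether reads of CAST and NZO were aligned to genomes of their own, is not given in the sources used here, and the part of either in these strain differences was not tested.

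Bnip3l, also called Nix, is the receptor that clears mitochondria from maturing red blood cells. The gene (ENSMUSG00000022051) lies on chromosome 14 at 66985239 to 67008877 on the minus strand. It was found at 63.5 to 113 CPM with a median of 74.0 in NZO, 66.5 to 125 CPM with a median of 91.1 in CAST, and 53.9 to 72.9 CPM with a median of 63.7 in B6. B6 was the lowest and the narrowest, and all 3 strains overlapped. CAST minus B6 was 0.53 (SE 0.15, adjusted p = 0.00684), or 1.45-fold, and was positive in all 4 combinations of sex and diet. NZO minus B6 was 0.36 (SE 0.15, adjusted p = 0.0752) and was not called, although DESeq2 called it (adjusted p = 0.0459). It was also called without either CAST male (adjusted p = 0.0329 and 0.0327) or 1 NZO female (0.44, adjusted p = 0.0243), all at 10% fat.

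The level of Bnip3l followed the summed level of red blood cell markers in the library. The 8 red blood cell markers, among them 4 hemoglobin genes, Alas2 and Slc4a1, summed to 4540 to 25800 CPM (median 8430) in NZO, 4320 to 22000 CPM (median 11600) in CAST and 2900 to 8820 CPM (median 5060) in B6. All 8 were detected, with Hba-a1 at 3.66 to 5000 CPM (median 23.1) and Hba-a2 at 1500 to 11400 CPM. The part of Hba-a1 in the strain differences of the sum was not tested. On the log2 scale, Bnip3l and this sum had a Pearson's r of 0.96 and a Spearman's rho of 0.94 over 24 libraries, and r was 0.99 in NZO, 0.95 in CAST and 0.96 in B6 (n = 8 each). Without the 2 libraries farthest from the median sum, r was 0.95. The points share library and scaling. For each doubling of the marker sum, Bnip3l rose by 0.35 on the log2 scale (SE 0.02) in the fit across all genes, while the slopes of the other 8 genes lay between -0.07 and 0.02.

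With the marker sum as a covariate, chosen after seeing the data, the strain differences of Bnip3l shrank and their errors fell. CAST minus B6 was 0.16 (SE 0.04, adjusted p = 0.00395), NZO minus B6 was 0.06 (SE 0.04, adjusted p = 0.287), and NZO minus CAST was -0.10 (SE 0.04, adjusted p = 0.0194) where it had been -0.17 (SE 0.15, adjusted p = 0.327) without the covariate. For Bnip3 the slope was 0.01 (SE 0.05) over all strains, but its r with the marker sum was -0.61 in NZO, 0.49 in CAST and 0.10 in B6 (n = 8 each), which a single slope averages. Its CAST minus B6 was 0.91 with the covariate. The processed pseudogene Bnip3l-ps is listed too, with at most 29.4 counts in a library and 0.212% of the counts of both. The reads of the pair could have been divided between them, and this share does not bound how many were assigned wrongly.

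**Figure D3:**
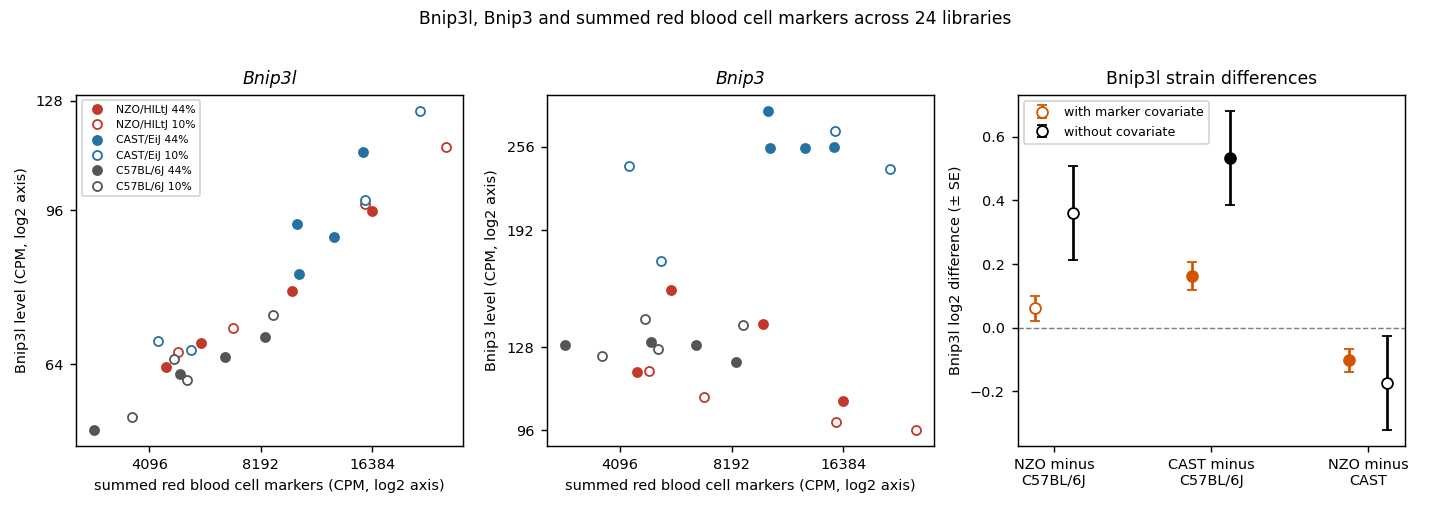
Level of Bnip3l and of Bnip3 against the summed level of 8 red blood cell markers in each of the 24 libraries, both in CPM on log2 axes, and the strain differences of Bnip3l (± SE) with and without the marker sum as a covariate. Filled points in the right panel have an adjusted p under 0.05. Bnip3l rises with the marker sum in all 3 strains. For Bnip3, every CAST library lies above all NZO and B6 libraries, whatever its marker sum. CAST minus B6 of Bnip3l falls to 0.16 with the covariate, against 0.53 without it.

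Fundc1 (ENSMUSG00000025040, chromosome X, 17556564 to 17572325, minus strand) encodes a mitophagy receptor that responds to hypoxia mainly through changes in its phosphorylation. It averaged 19.1 ± 1.39 CPM in NZO, 17.6 ± 1.47 CPM in CAST and 18.1 ± 0.54 CPM in B6 (SD, n = 8 each), with overlapping ranges. None of its strain differences was called. The nearest to a call was NZO minus CAST at 0.12 (95% interval 0.01 to 0.22, adjusted p = 0.0646), which was called without 1 CAST female (0.16, adjusted p = 0.0106) or 1 NZO female (0.15, adjusted p = 0.0191), both at 10% fat.

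None of the 9 genes was called for diet. Over the 3 strains, 0 of 9 were called for 44% against 10% fat, beside 0.157% of all genes tested. Within NZO 0 of 9 were called beside 0.0% of all genes, within CAST 0 of 9 beside 0.0%, and within B6 0 of 9 beside 0.0407%. DESeq2 and limma-voom also called 0 of 9 in each. At an unadjusted p under 0.05 there was 1 gene over all strains and 1 within NZO, Bnip3 both times, and 0 within CAST and within B6. For the 7 genes other than Bnip3 and Bnip3l, the 95% intervals over all strains lay between -0.13 and 0.15 on the log2 scale. The diets also overlapped for each of the 9 genes in each strain, where 3.34% of all genes in NZO, 2.78% in CAST and 4.11% in B6 did not overlap, and over all strains, where 0.0% did not.

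Bnip3 came nearest to a diet difference. In NZO females it was measured at 139 and 106 CPM at 44% fat, against 118 and 96.2 CPM at 10% fat, and in NZO males at 117 and 156 CPM at 44% fat, against 98.7 and 108 CPM at 10% fat. In CAST females it was at 290.2 and 256 CPM at 44% fat, against 239.9 and 270.4 CPM at 10% fat, and in CAST males at 255 and 255 CPM at 44% fat, against 173 and 237 CPM at 10% fat. In B6 females it was at 129 and 130.2 CPM at 44% fat, against 141 and 138 CPM at 10% fat, and in B6 males at 122 and 129 CPM at 44% fat, against 124 and 127 CPM at 10% fat. The means were higher at 44% fat in both sexes of NZO and CAST and lower in both sexes of B6. Within each sex of NZO, the diets fall in different ranges of library identifiers. Diet and identifier range cannot be told apart within a sex there. Over both sexes, each NZO diet has libraries in the second and in the third range. In CAST the first range holds both diets. The other CAST libraries are in the second range at 10% fat and in the third at 44% fat. Among these, diet and identifier range cannot be told apart either. The effect was 0.30 in NZO (95% interval 0.07 to 0.53, adjusted p = 0.616), 0.21 in CAST (-0.03 to 0.44, adjusted p = 0.779) and -0.06 in B6 (-0.29 to 0.18, adjusted p = 0.994), and none passed the test. Over all strains it was 0.15 (0.02 to 0.28, adjusted p = 0.493). Within strains, Bnip3 and the cardiomyocyte marker sum had an r of -0.56. At 44% against 10% fat, that sum averaged 64100 and 69600 CPM in NZO and 65500 and 68800 CPM in CAST. In B6 it averaged 66300 and 67900 CPM. Its part in the Bnip3 values was not tested.

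The diet effect was not shown to differ between strains for any of the 9 genes. Between NZO and B6, 0 of 9 differences of the diet effect were called, beside 0.00581% of all genes, and 1 had an unadjusted p under 0.05, again Bnip3 (0.36, 95% interval 0.02 to 0.69, adjusted p = 1). Between CAST and B6 and between NZO and CAST, 0 of 9 were called beside 0.0% of all genes in each, and 0 had an unadjusted p under 0.05. For Mfn1, the other gene with a separated strain, the diet effect was -0.02 in NZO, -0.08 in CAST and 0.00 in B6, and the intervals all included 0. For Bnip3l the intervals without the marker covariate were wide, from -0.65 to 0.25 in NZO. Changes of that size were thus not detectable at this spread. DESeq2 and limma-voom called 0 of 9 in each of these 3 comparisons as well.

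**Figure D4:**
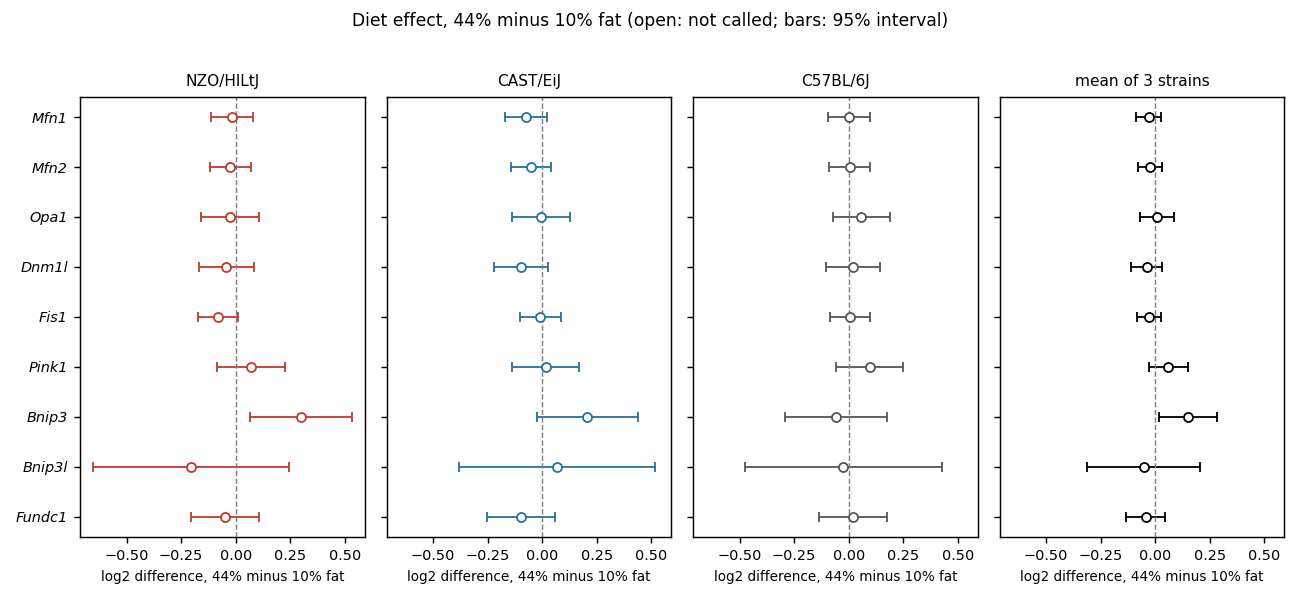
Diet effect, 44% minus 10% fat, of the 9 genes on the log2 scale with 95% intervals, in NZO, CAST and B6 (4 libraries per diet) and as the mean of the 3 strains. Open points were not called, which holds for all 36 values. The intervals of Bnip3 lie above 0 in NZO and over all strains, with adjusted p-values of 0.616 and 0.493.

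None of the 9 genes was called for sex either. Of the 9 genes, 0 were called between females and males, beside 0.372% of all genes tested, and 0 were called for a difference of the diet effect between the sexes, beside 0.0% of all genes. DESeq2 and limma-voom called 0 in both. The sexes overlapped for each of the 9 genes, and 0.0465% of all genes did not overlap. Mfn2 alone had an unadjusted p under 0.05 in the first, at 792 ± 46.6 CPM in females and 828 ± 48.7 CPM in males (SD, n = 12 each), a log2 difference of -0.06 (95% interval -0.12 to -0.01, adjusted p = 0.461). In the second, 0 genes had an unadjusted p under 0.05. The NZO part of this second contrast cannot be told apart from the range of library identifiers.

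Related genes of the same pathways were counted from 7 lists with 123 symbols, of which 117 were tested. In NZO against B6, 17 of the 117 were higher and 24 lower, or 35.0% called beside 35.5% of all genes. In CAST against B6, 53 were higher and 27 lower, or 68.4% beside 58.8%. In NZO against CAST, 21 were higher and 57 lower, or 66.7% beside 60.3%. Diet called 0 of the 117 in each strain and over all strains, and 0 were called for sex. The lists were not tested as sets, and the numbers are counts only.

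**Figure D5:**
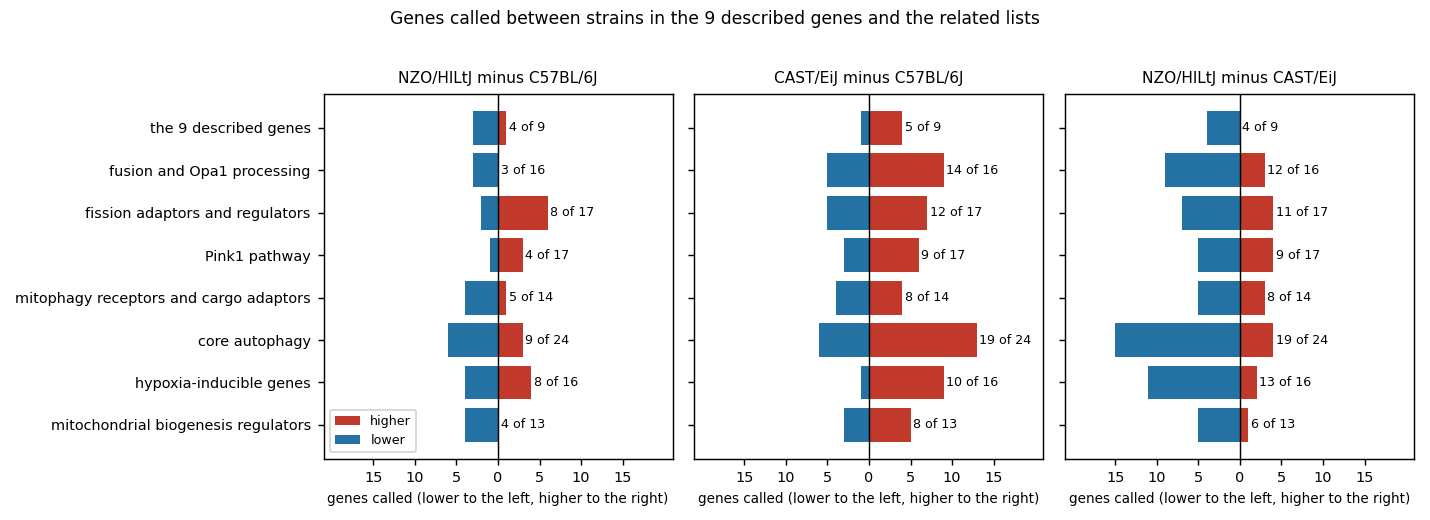
Number of genes called higher (to the right) and lower (to the left) in the 9 described genes and in 7 related lists, for NZO minus B6, CAST minus B6 and NZO minus CAST. Figures beside the bars give genes called of genes tested. The counts of NZO minus B6 are the smallest in most lists. Most lists lean to the right in CAST minus B6 and to the left in NZO minus CAST, core autophagy and hypoxia-inducible genes most clearly.

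Of 16 other genes of fusion and Opa1 processing, 0 were higher and 3 lower in NZO than in B6, 9 higher and 5 lower in CAST than in B6, and 3 higher and 9 lower in NZO than in CAST. Letm1, an inner membrane protein of ion exchange that affects mitochondrial shape, averaged 97.3 ± 6.79 CPM in NZO, 147 ± 14.4 CPM in CAST and 91.2 ± 3.9 CPM in B6, with CAST minus B6 at 0.69 (SE 0.04, adjusted p = 3.4e-11). Fam73a, also called Miga1 and known to promote fusion, was at 22.8 ± 2.24 CPM in NZO, 15.8 ± 1.0 CPM in CAST and 28.7 ± 1.46 CPM in B6, with differences from B6 of -0.34 (adjusted p = 4.12e-06) in NZO and -0.86 (adjusted p = 3.16e-12) in CAST. Afg3l2, a subunit of a protease of the inner membrane, was 0.41 higher in CAST than in B6, and the cristae proteins Chchd3 and Immt were lower in NZO than in B6 (-0.17 and -0.10).

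Among 17 fission adaptors and regulators, 6 were higher and 2 lower in NZO than in B6, 7 higher and 5 lower in CAST than in B6, and 4 higher and 7 lower in NZO than in CAST. Mief1, which encodes the Drp1 adaptor MiD51, averaged 30.9 ± 1.58 CPM in NZO, 39.6 ± 1.86 CPM in CAST and 25.9 ± 1.67 CPM in B6 (SD, n = 8 each). Its difference from B6 was 0.25 (adjusted p = 0.000344) in NZO and 0.62 (adjusted p = 1.86e-09) in CAST. Inf2, a formin that builds actin at division sites, was higher than in B6 by 0.53 in NZO and by 0.80 in CAST. Mief2, which encodes MiD49, was 0.40 higher in NZO than in B6 and 0.52 higher in NZO than in CAST.

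In the Pink1 pathway, 3 of 17 genes were higher and 1 lower in NZO than in B6, 6 higher and 3 lower in CAST than in B6, and 4 higher and 5 lower in NZO than in CAST. Rhot2, which encodes the mitochondrial transport GTPase Miro2, averaged 122 ± 6.08 CPM in NZO, 91.6 ± 7.5 CPM in CAST and 130 ± 5.98 CPM in B6. CAST minus B6 was -0.51 (adjusted p = 2.35e-09). Vdac1, the main outer membrane channel, was lower in CAST than in B6 (-0.36, adjusted p = 3.51e-09). Usp8 (0.28, adjusted p = 1.38e-07) and Tomm40 (0.44, adjusted p = 2.07e-07) were higher in CAST than in B6.

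The other mitophagy receptors and cargo adaptors gave 1 of 14 higher and 4 lower in NZO than in B6, 4 higher and 4 lower in CAST than in B6, and 3 higher and 5 lower in NZO than in CAST. The adaptor Tax1bp1 was 0.40 higher and the receptor Bcl2l13 0.22 higher in CAST than in B6. Fkbp8, a further receptor, was lower in NZO than in B6 (-0.14). Csnk2a1 was lower in CAST than in B6 (-0.36), and Src was higher in NZO than in B6 (0.41). Of 24 core autophagy genes, 3 were higher and 6 lower in NZO than in B6, 13 higher and 6 lower in CAST than in B6, and 4 higher and 15 lower in NZO than in CAST. Ulk1, the kinase that starts autophagosome formation, averaged 91.6 ± 5.23 CPM in NZO, 141 ± 6.79 CPM in CAST and 98.5 ± 8.02 CPM in B6, with NZO minus CAST at -0.63 (adjusted p = 4.85e-10). Map1lc3a and Map1lc3b, 2 genes for LC3, were lower in NZO than in B6 (-0.33 and -0.18). Atg7 was lower in CAST than in B6 (-0.65), and Wipi1 was higher in NZO than in CAST (0.39).

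Of 16 hypoxia-inducible genes other than Bnip3, 4 were higher and 4 lower in NZO than in B6, 9 higher and 1 lower in CAST than in B6, and 2 higher and 11 lower in NZO than in CAST. Their median log2 difference was 0.03 in NZO minus B6, 0.29 in CAST minus B6 and -0.45 in NZO minus CAST, where the median of all genes tested was 0.00 each time. Pdk1, a kinase that inhibits pyruvate dehydrogenase, averaged 45.1 ± 4.31 CPM in NZO, 326 ± 19.0 CPM in CAST and 209 ± 13.6 CPM in B6. NZO minus B6 was -2.22 (SE 0.05, adjusted p = 4.19e-17) and CAST minus B6 was 0.64 (SE 0.04, adjusted p = 3.17e-10). Higd1a, a small mitochondrial protein induced by hypoxia, showed an order like that of Bnip3, at 61.6 ± 5.21 CPM in NZO, 115 ± 9.28 CPM in CAST and 65.1 ± 4.21 CPM in B6. Other genes of the list had other orders. Pgk1, an enzyme of glycolysis, was highest in B6, at 158 ± 25.2 CPM in NZO, 216 ± 9.67 CPM in CAST and 304 ± 12 CPM in B6, with differences from B6 of -0.96 (adjusted p = 2.6e-13) in NZO and -0.49 (adjusted p = 1.37e-09) in CAST. Ldha, which encodes a lactate dehydrogenase subunit, was higher than in B6 in both, by 0.25 (adjusted p = 2.66e-05) in NZO and by 0.55 (adjusted p = 2.36e-10) in CAST. Hif1a itself was at 51.6 ± 5.66 CPM in NZO, 69.7 ± 8.06 CPM in CAST and 72.0 ± 7.88 CPM in B6, and NZO minus B6 was -0.48 (adjusted p = 4.3e-06). Of 13 regulators of mitochondrial biogenesis, 0 were higher and 4 lower in NZO than in B6, 5 higher and 3 lower in CAST than in B6, and 1 higher and 5 lower in NZO than in CAST. Ppargc1a, which encodes the coactivator PGC-1alpha, averaged 95.6 ± 12.1 CPM in NZO, 111 ± 25.9 CPM in CAST and 158 ± 19.7 CPM in B6, with NZO minus B6 at -0.72 (adjusted p = 0.000325).

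The 9 genes did not vary as a block. Over 36 pairs, Pearson's r of log2 levels across 24 libraries ran from -0.73 for Mfn1 with Fis1 to 0.68 for Dnm1l with Bnip3, with a median of 0.09. Within strains these pairs had an r of 0.02 and -0.29, so both rest on differences between strains. The genes most like a member were sought by Pearson's r over 24 libraries among 12086 genes with a mean of at least 1 CPM. For Bnip3 these were Marf1 (0.96), Nhlrc2 (0.96) and Kif1c (0.96), and for Mfn1 they were Lrpprc (0.95), Tnni3k (0.94) and Ndrg4 (0.94). For Bnip3l they were E2f2 (0.96), Fech (0.96) and Cdr2 (0.96), which kept an r of 0.96, 0.96 and 0.94 within strains. Dnm1l was most like Eif1ax (0.90), Mfn2 most like Bod1 (0.91), Fis1 most like Obsl1 (0.85), Opa1 most like Gfm1 (0.82), and Pink1 most like Tbc1d16 (0.77). These values describe libraries of 3 strains, which alone can give high correlations between genes with a like pattern over the strains.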

How the data were processed

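Expected counts, the estimated reads of each gene, were deposited by the authors for all libraries; 19.3% of the values were fractional (tolerance 1e-06). The authors also deposited variance-stabilized values, which resemble log2 levels. The submitters' processing notes name GRCm38 and DESeq2 with no role, and which aligner, counter and strand setting were used is not given in the sources used here. Per the labels' protocols, libraries were made from polyadenylated RNA and sequenced as paired ends.

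After rounding, the counts were fitted in edgeR 4.0.16 (R 4.3.3). filterByExpr (minimum count 10, minimum total 15) left 17203 genes. A quasi-likelihood model with robust estimation and a mean for each of 12 groups of 2 libraries was fitted to all 24 libraries with TMM scaling (factors 0.954 to 1.06), and p-values were adjusted by the Benjamini-Hochberg method over all genes tested, for 12 contrasts. The script was tested on simulated data. CPM used TMM-scaled totals, and CPM per kb the summed exon length in GENCODE M21. Alternatives were DESeq2 1.42.0, limma-voom (limma 3.58.1), limma on the deposited log2-like values, DESeq2 size factors, no filter, only the libraries of the strains compared, the range of library identifiers in the labels as a block or its first range alone, and each library left out. Identifiers fall in 3 ranges. The first holds CAST and B6 only, so NZO has no libraries in it. NZO females at 10% and males at 44% fat are all in the second range, and the other NZO libraries all in the third. Sequences are from RefSeq (GRCm38.p6). Replicate numbers were given in accession order. Of the 10 genes chosen, 1 is not reported here and 9 are named throughout; of each related list, up to 4 called genes of smallest adjusted p per contrast could be named, and of likeness the top 3. The genes and lists were chosen with earlier results of these data known.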

Additional observations from a re-analysis of the deposited data

Results flagged for a closer look

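Within 54 groups of 4 libraries (9 genes, 3 strains and 2 diets), a library lay far from the other 3 in 3 groups, and chance gives about 1 in 20. Fis1 in B6 at 44% fat had a female at 37.736 CPM, below 40.8, 40.9 and 41.1 CPM in the others. Bnip3 in CAST at 44% fat had a female at 290.201 CPM, above 255, 255 and 256 CPM. Bnip3 in B6 at 44% fat had a male at 121.723 CPM, below 129, 129 and 130.2 CPM; all 4 of these lie under every CAST library.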

How the results depend on the processing

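Of 13 called strain differences, 10 stayed called with the same sign under every alternative run. Bnip3 ranged from 0.86 to 0.97 in CAST minus B6 and from -1.13 to -1.01 in NZO minus CAST, and Mfn1 from -0.30 to -0.26 in NZO minus B6 and from -0.33 to -0.28 in CAST minus B6. Those lost were Fis1 in CAST minus B6 in the first identifier range alone (0.12, adjusted p = 0.0978), Mfn2 in NZO minus B6 with the identifier range as a block (-0.09, adjusted p = 0.0759) or the red blood cell marker sum as a covariate (-0.09, adjusted p = 0.063), and Pink1 in NZO minus B6 without any 1 of 9 libraries, namely 1 of each B6 group, both NZO females at 10% fat and 1 of each other NZO group (-0.15 to -0.09, adjusted p up to 0.126); the cause was not tested. Bnip3l in NZO minus B6 became called with DESeq2, with only the NZO and B6 libraries (adjusted p = 0.039) and without 1 of 3 libraries, and Bnip3 in NZO minus B6 (-0.21) without 1 of 2 NZO libraries at 44% fat (adjusted p = 0.0394 and 0.0452). No called value changed sign. Members called for diet, its interactions and sex stayed at 0 under every alternative. Over all genes, diet calls depended on the tool: 27 with edgeR and 105 with DESeq2 over all strains (4 to 144 when 1 library was left out), 0 and 13 in NZO, 0 and 29 in CAST, and 7 and 38 in B6. Differences of the diet effect had 1 and 4 for NZO minus B6, 0 and 9 for CAST minus B6 and 0 and 3 for NZO minus CAST; sex had 64 and 137. No analysis paired by replicate number was possible because the labels carry no such numbers; the identifier range is the single block that was fitted. With 2 libraries per group, small changes of variable genes such as Bnip3l were not detectable in the fit without covariates.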
